A study of Mus musculus with 16 samples.

Results

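Oxidative phosphorylation is carried out by 5 protein complexes of the inner mitochondrial membrane, and the genes described here are those of the nuclear genome that encode their subunits. They were taken from the gene table by symbol, as protein-coding genes whose names begin with Nduf followed by a, b, c, s or v and a digit, with Uqcr, with Cox4 to Cox8 or with Atp5, together with Sdha to Sdhd. The rule found 84 of the 49671 genes in the table: 37 of complex I, 4 of complex II, 8 of complex III, 18 of complex IV and 17 of complex V. The rule uses no measured value, although it was chosen with earlier results of these data known. In all, 6 processed pseudogenes that match by symbol were left out. As background, Ndufa4 is now regarded as a subunit of complex IV, and Atp5s and Atp5sl encode proteins related to assembly rather than subunits. All 3 are kept under the complex of their symbol in every count, median and sum.

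RNA came from natural killer (NK) cells, innate lymphocytes that kill tumour cells, sorted as live CD45+ CD3- NKp46+ DX5+ cells. Libraries were made by Smart-seq2, which amplifies full-length cDNA, with 5-10K NK cells per library. In every group the mice had the strain background FVB/N and the genotype Cdh1F/F;Trp53F/F;Foxp3GFP-DTR, and carried a KEP mammary tumour, transplanted orthotopically, of 100 mm2. In the Foxp3GFP-DTR allele the diphtheria toxin receptor is joined to GFP and is made by cells that express Foxp3, the regulatory T cells, so that diphtheria toxin (DT) kills them. The groups, with 4 libraries each, were NK cells of the axillary tumour-draining lymph node (LN) from mice given 25 ug DT, LN from mice given PBS, lungs from mice given DT, and lungs from mice given PBS, each dosed at T = 0 and T = 7, with no unit of time in the labels. The design text calls the 4 libraries of a group biological replicates, and every p-value here treats a library as a separate mouse. The study compared NK cells of DT-treated and PBS-treated mice.

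In oxidative phosphorylation, complex I takes electrons from NADH and complex II takes them from succinate, ubiquinone carries them to complex III and cytochrome c carries them on to complex IV, where oxygen is reduced. Complexes I, III and IV pump protons, and complex V, the ATP synthase, uses the proton gradient to make ATP. The catalytic cores of complexes I, III and IV hold subunits encoded by mitochondrial DNA, which have to be matched by nuclear subunits made in the cytosol and imported. In NK cells this respiration is known to rise with cytokine activation and to be needed for proliferation and cytotoxicity.

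Many nuclear genes of the respiratory chain are known targets of the transcription factors NRF1, GABPA and YY1. Promoters from RefSeq on GRCm38.p6, from 250 bases before to 50 bases after the annotated start, matched 66 of the 84 members by symbol. Each was searched on both strands for GCATGCGC, the core of the NRF1 motif, for CCGGAAG, which the ETS family including GABPA binds, and for AAGATGGC, the YY1 motif; the last 3 letters of the ETS motif are the first 3 of the YY1 motif, so matches of these can overlap. The NRF1 letters stood in 10 of the 66 members (15.2%) and in 3.05% of the 27025 genes with a promoter in the table. The ETS letters stood in 16 members (24.2%) and in 9.93% of all genes, and the YY1 letters in 9 members (13.6%) and in 3.19% of all genes. At least 1 of the 3 motifs was present in 29 members, 43.9%, against 14.9% of all genes. A match describes letters and is no evidence of binding. The promoters of 4 members are shown because their transcripts lay on opposite sides in the comparisons below: Atp5b (chr10:128083057-128083356, plus strand) and Uqcrc1 (chr9:108936398-108936697, plus strand) had lower mean levels in the DT groups, and Cox7b (chrX:106015450-106015749, plus strand) and Atp5l (chr9:44920693-44920992, minus strand) had higher ones, none of them past the test. Capitals mark motif letters. Uqcrc1 has the NRF1 letters on both strands in 1 overlapping run, Atp5l has them once together with the ETS letters at 2 places, and the windows of Atp5b and Cox7b hold none of the 3.
Atp5b: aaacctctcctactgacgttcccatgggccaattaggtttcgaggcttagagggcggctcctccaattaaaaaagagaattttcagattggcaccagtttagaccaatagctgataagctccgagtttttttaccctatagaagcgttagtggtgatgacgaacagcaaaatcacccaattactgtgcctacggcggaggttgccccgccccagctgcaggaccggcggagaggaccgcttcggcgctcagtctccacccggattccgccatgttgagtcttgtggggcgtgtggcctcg
Uqcrc1: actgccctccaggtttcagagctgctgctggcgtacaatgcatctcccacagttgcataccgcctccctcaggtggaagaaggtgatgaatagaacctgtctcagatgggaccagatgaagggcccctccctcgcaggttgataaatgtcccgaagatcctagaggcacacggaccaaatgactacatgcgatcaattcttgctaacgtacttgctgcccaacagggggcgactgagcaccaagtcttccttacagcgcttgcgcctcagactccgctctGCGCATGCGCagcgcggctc
Cox7b: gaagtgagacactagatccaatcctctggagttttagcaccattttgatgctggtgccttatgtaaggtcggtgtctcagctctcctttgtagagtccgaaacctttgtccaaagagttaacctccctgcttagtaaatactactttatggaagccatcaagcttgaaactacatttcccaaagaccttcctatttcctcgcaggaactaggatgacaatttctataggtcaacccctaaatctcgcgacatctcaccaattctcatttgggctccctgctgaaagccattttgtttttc
Atp5l: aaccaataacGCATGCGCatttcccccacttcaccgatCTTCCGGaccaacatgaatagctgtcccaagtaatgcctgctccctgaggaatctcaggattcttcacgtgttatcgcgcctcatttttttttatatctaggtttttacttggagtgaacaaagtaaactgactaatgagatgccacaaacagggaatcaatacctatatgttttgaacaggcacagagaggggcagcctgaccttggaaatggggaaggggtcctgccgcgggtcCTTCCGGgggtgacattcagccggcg
Among the members of shortest coding sequence, described further below, 3 of 25 held the NRF1 letters and 8 of 25 the ETS letters, against 2 of 18 and 3 of 18 of the longest.

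Total counts per library lay between 3929560 and 10744934, and 13940 genes with enough counts were tested, among them 78 of the 84 members. A list of 7 genes of the sort gate (Ncr1, Ptprc and Itga2) and of NK cells (Klrb1c, Gzma, Prf1 and Eomes) summed to between 15900 and 54300 CPM (read counts scaled to a common library size). T cell markers summed to between 39.4 and 492 CPM, and Foxp3 itself did not pass 1.19 CPM in any library. Replicate 1 of the DT group stood apart in each tissue: in LN it lay above the range of the PBS libraries for 53 of the 78 members and below it for 17 (67.9% and 21.8%, against 33.8% and 31.7% of all genes), and in lung above for 48 and below for 14 (61.5% and 17.9%, against 30.1% and 38.4%). Replicate 4 of the LN DT group lay above the PBS range for 1 member and below it for 8 (1.28% and 10.3%, against 15.6% and 12.9% of all genes). Replicate 4 of the lung DT group lay below it for 58 (74.4%, against 27.1%). These libraries were kept, and results that rest on them are given with and without them. In bulk RNA of sorted cells, fewer cells of a type and less RNA per cell cannot be told apart.

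The summed level of all nuclear members overlapped between DT and PBS in both tissues. It was 19600, 12310, 11970 and 13750 CPM in the LN DT libraries, against 11430, 15900, 13570 and 14410 CPM in the LN PBS libraries. In lung it was 16170, 10670, 10830 and 8957 CPM in the DT libraries, against 12320, 15720, 12970 and 12350 CPM in the PBS libraries. Replicate 1 was the highest of the DT libraries in both tissues, and in lung the other 3 DT libraries were below every PBS library. By complex, the sums did not overlap in lung for complex V, with 3350, 2740, 3040 and 2620 CPM in lung DT, against 3910, 4590, 3890 and 3550 CPM in lung PBS. Of its 17 members, 2 lay wholly below lung PBS, Atp5a1 and Atp5b. These have the highest levels in the complex, with means of 539 and 690 CPM over all libraries. None of the 12 members outside the F1 head did, and the sum was not taken without Atp5a1 and Atp5b. In LN the sums overlapped for each of the 5 complexes. The 13 subunits encoded by mitochondrial DNA summed to 50500, 23100, 24800 and 8210 CPM in the LN DT libraries, against 11100, 8450, 9580 and 6640 CPM in the LN PBS libraries. In lung they summed to 37000, 14200, 21500 and 21200 CPM with DT, against 5460, 6150, 13600 and 17900 CPM with PBS. In all, 3 of the 4 DT libraries were above every PBS library in each tissue, replicate 4 being the exception in LN and replicate 2 in lung. The summed mitochondrial level averaged 26700 ± 17600 CPM in LN DT and 8940 ± 1880 CPM in LN PBS (SD, n = 4 each; exact two-sided permutation p = 0.114, 0.195 after Benjamini-Hochberg adjustment over 12 library measures). In lung the averages were 23500 ± 9630 CPM with DT and 10800 ± 6010 CPM with PBS (SD, n = 4 each; exact permutation p = 0.0571, adjusted 0.171). The smallest p that 4 against 4 libraries allow is 0.0286. These sums rest on 7 of the 13 genes, since mt-Atp6, mt-Atp8, mt-Co2, mt-Co3, mt-Nd3 and mt-Nd4l did not pass 13.9 CPM in any library. Cytochrome b, mt-Cytb, alone made up 63.4% of the sum in LN DT replicate 1 and 58.6% in lung DT replicate 1, against 23.1% to 43.1% in the other 14 libraries. Without it the sums were 18500, 15700, 16300 and 5390 CPM in LN DT, against 6920, 6230, 5450 and 4560 CPM in LN PBS, and 15300, 10900, 15700 and 13300 CPM in lung DT, against 3740, 4730, 8230 and 11100 CPM in lung PBS. The same libraries overlapped, and the DT mean minus the PBS mean was 8160 CPM in LN (exact permutation p = 0.114) and 6860 CPM in lung (p = 0.0571), where with mt-Cytb it was 17700 CPM in LN and 12700 CPM in lung.

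**Figure D1:**
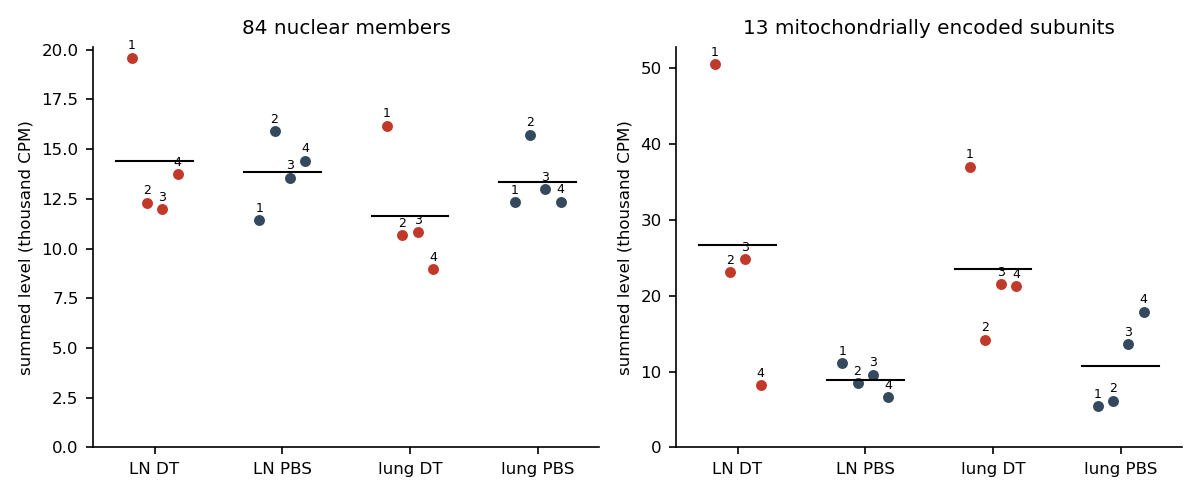
Summed level (axis in CPM divided by 1000) of the 84 nuclear members (left) and of the 13 subunits encoded by mitochondrial DNA (right); each point is a library with its replicate number, bars are group means. The nuclear sums of the DT and PBS groups overlap in both tissues, while 3 of 4 DT libraries lie above every PBS library of their tissue for the mitochondrial sums.

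Levels of different genes were compared as CPM per kb of transcript, averaged over the 16 libraries. The median member stood at 130 CPM per kb in complex I, 146 in complex II, 290 in complex III, 274 in complex IV and 190 in complex V, over the tested members of each. The highest levels per kb within each complex were those of Ndufa4 (708 CPM per kb), Sdhb (374), Uqcrq (384), Cox4i1 (613), a regulatory subunit of cytochrome c oxidase, and Atp5h (519), a peripheral-stalk subunit. The transcript used for Atp5h has 486 bases, 483 of them coding, and a longer one would lower its value. Its place above Atp5e (455), the next in complex V, rests on this length. The lowest were Ndufs5 (42.9 CPM per kb), Sdhc (26.3), which anchors complex II in the membrane, Uqcrc2 (77.5), Cox6b2 (2.29) and Atp5s (13.3).

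**Figure D2:**
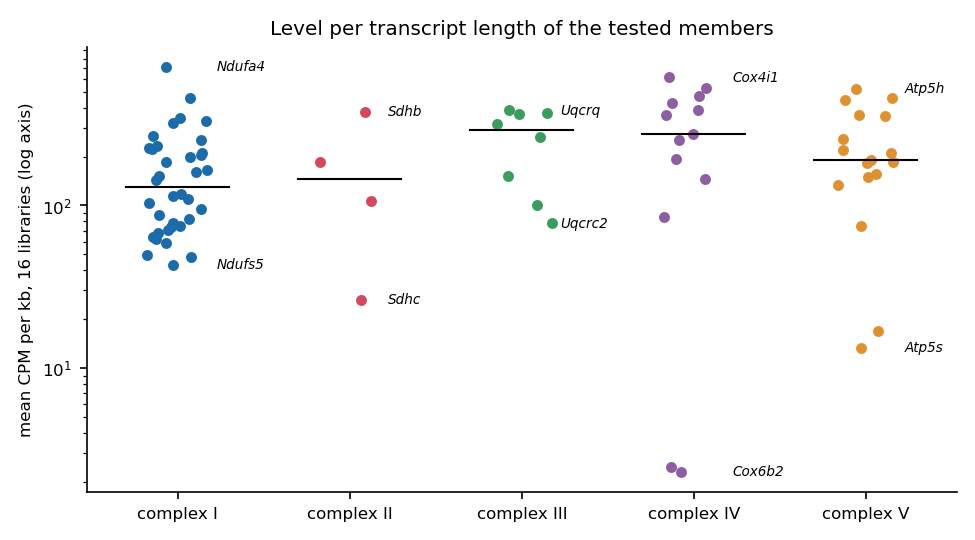
Mean level over the 16 libraries in CPM per kb of transcript (log axis) for the 78 tested members by complex; bars are medians and the highest and lowest member of each complex are named. Medians run between 130 CPM per kb in complex I and 290 in complex III, and in complex IV Cox6b2 is lowest at 2.29.

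Several tissue-restricted isoforms had few or no counts. Ndufa4l2, a hypoxia-inducible relative of Ndufa4, and Cox7b2 and Cox8c, known from testis, had 0 counts in all 16 libraries, where 3 counts of a library stand for 0.298 to 0.833 CPM. Cox8b, known from heart and muscle, had 1 count in all. Cox4i2, an isoform of lung and of low oxygen, lay between 0.0 and 1.99 CPM, and Cox7a1, of heart and muscle, between 0.0 and 2.15 CPM; neither had enough counts to be tested. Their common counterparts were far higher: Cox4i1 lay between 355 and 646 CPM, Cox7a2 between 136 and 433 CPM, and Cox8a between 134 and 395 CPM. Cox6a2, the heart and muscle isoform of Cox6a1, had 1.37, 3.83, 13.4 and 0.44 CPM in LN DT, against 0.526, 0.848, 1.36 and 0.339 CPM in LN PBS. Replicates 2 and 3 of LN DT were the highest, and replicate 4 lay within the PBS range, so the groups overlapped (log2 fold change 2.61 ± 1.28 SE, edgeR adjusted p = 0.437). Those 2 libraries also held the highest summed dendritic cell markers, 155 and 304 CPM, against 50.5 and 52.3 CPM in LN DT replicates 1 and 4 and 29.9 to 55.6 CPM in LN PBS. The 5 tested of 7 dendritic markers all had log2 fold changes above 0, and the part of these cells in the Cox6a2 value was not tested. Exons of Cox6a2 overlap those of Itgad on the opposite strand. With the strand setting of the counting not stated, how reads in the bases shared by Cox6a2 and Itgad were counted is not known. Cox6b2, known from testis, had 3.16, 1.75, 2.35 and 1.57 CPM in lung DT, against 0.993, 0.555, 0.967 and 1.24 CPM in lung PBS. Of the 78 members it alone had all lung DT libraries above all lung PBS libraries (log2 fold change 1.20 ± 0.92, adjusted p = 0.562), at levels of few counts.

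Atp5g1, Atp5g2 and Atp5g3 encode the same mature protein, the c subunit whose ring turns in the membrane. Atp5g3 was the highest per length with 241 CPM per kb in LN DT, 209 in LN PBS, 181 in lung DT and 208 in lung PBS. Atp5g1 followed with 150 CPM per kb in LN DT, 161 in LN PBS, 147 in lung DT and 166 in lung PBS. Atp5g2 was lowest with 78.4 CPM per kb in LN DT, 110 in LN PBS, 50.4 in lung DT and 58.0 in lung PBS. Its transcript of 441 bases has 438 coding bases, and a longer one would lower these values further. The order of the 3 genes was thus the same in each group mean.

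In LN, no member passed the test for DT against PBS. By edgeR's quasi-likelihood test with Benjamini-Hochberg adjustment over all genes, 0 of 78 members were called, where 0.0646% of all 13940 genes were called (9, higher in DT). At an unadjusted p under 0.05, 13 members were higher and 8 lower, 16.7% and 10.3% of the 78, against 8.29% and 3.52% of all genes. DESeq2 called 1 member, Cox7b (1.28%), and limma-voom with quality weights 35 (44.9%), where they called 2.15% and 26.7% of all genes. The members had a median log2 fold change of 0.16 and 43 of 78 were above 0, against a median of 0.08 and 54.6% above 0 for all genes. Without replicate 1 of LN DT the median was -0.12, beside 0.01 for all genes. Within complexes I, III, IV and V log2 fold changes lay on both sides of 0, and in complex II all 4 lay below it.

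The members of smallest p were small membrane subunits with higher mean levels in LN DT. Cox7b, a single-span subunit of cytochrome c oxidase (ENSMUSG00000031231, GRCm38 chromosome X, 106015700 to 106022450), had 604, 441, 374 and 202 CPM in LN DT, against 152, 256, 127 and 170 CPM in LN PBS. Replicates 1 to 3 of LN DT were above all PBS libraries, and replicate 4 lay below the highest of them, so the groups overlapped. The log2 fold change was 1.20 ± 0.34 (SE; edgeR adjusted p = 0.201), and over the 26 alternatives its adjusted p ran between 0.000842 and 1.0. Atp5l, the g subunit of the ATP synthase membrane part, had 146, 87.7, 89.3 and 50.4 CPM in LN DT, against 30.7, 60.9, 33.1 and 43.6 CPM in LN PBS. Replicates 1 to 3 were again above all PBS libraries, with replicate 4 the DT library inside the PBS range (log2 fold change 1.15 ± 0.34, adjusted p = 0.22). Cox7c had 410, 179, 151 and 106 CPM in LN DT, against 60.3, 127, 79.1 and 90.8 CPM in LN PBS, with the same single overlapping library (log2 fold change 1.24 ± 0.40, adjusted p = 0.236). Among the other membrane subunits of the ATP synthase, Atp5k (e) had a log2 fold change of 0.98 ± 0.34 and Atp5j2 (f) of 0.80 ± 0.27. In complex I as grouped by symbol the smallest p belonged to Ndufa4, with 716, 446, 359 and 256 CPM in LN DT, against 192, 348, 198 and 228 CPM in LN PBS. Its DT replicates 1 to 3 were above every PBS library (log2 fold change 0.88 ± 0.32, adjusted p = 0.287).

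Atp5a1, the alpha subunit of the F1 head of the ATP synthase, had 253, 320, 345 and 703 CPM in LN DT, against 557, 689, 905 and 736 CPM in LN PBS. Atp5b, the catalytic beta subunit (ENSMUSG00000025393, GRCm38 chromosome 10, 128083273 to 128090391), had 299, 454, 476 and 915 CPM in LN DT, against 698, 992, 1080 and 858 CPM in LN PBS. In both genes replicates 1 to 3 of LN DT were below every PBS library and replicate 4 was among them. The log2 fold change was -0.83 ± 0.30 for Atp5a1 (adjusted p = 0.277) and -0.76 ± 0.31 for Atp5b (adjusted p = 0.347). Without replicate 4 of LN DT, Atp5a1 passed the test at -1.24 (adjusted p = 0.0392; 0.000362 to 1.0 over its 26 alternatives), as did Cox7b at 1.42 (adjusted p = 0.0478), and no other member did. These are 2.53% of the 79 members tested in that fit, where 0.837% of all genes were called (74 higher and 48 lower). Exons of Atp5a1 overlap those of Haus1 on the opposite strand. With the strand setting of the counting not stated, how reads in the shared bases were counted is not known.

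Sdha, the flavoprotein that oxidises succinate in complex II and in the tricarboxylic acid cycle, had 160, 180, 228 and 406 CPM in LN DT, against 461, 293, 481 and 444 CPM in LN PBS. Replicates 1 to 3 were again below all PBS libraries (log2 fold change -0.79 ± 0.29, adjusted p = 0.303). Sdhd, a membrane anchor of complex II, was 1 of 3 members whose LN DT libraries all lay below the LN PBS libraries, with 241, 156, 174 and 250 CPM in LN DT, against 270, 268, 314 and 307 CPM in LN PBS (log2 fold change -0.50 ± 0.23, adjusted p = 0.397). The others were complex I core subunits. Ndufv1, which binds NADH, had 32.6, 59.4, 82.8 and 105 CPM in LN DT, against 113, 108, 138 and 124 CPM in LN PBS (log2 fold change -0.78 ± 0.34, adjusted p = 0.38). Ndufs7, which holds the last iron-sulphur cluster before ubiquinone, had 116, 147, 133 and 154 CPM in LN DT, against 168, 223, 162 and 199 CPM in LN PBS (log2 fold change -0.45 ± 0.20, adjusted p = 0.38). The 3 members are 3.85% of the 78, where 3.42% of all genes lay wholly below; none lay wholly above, where 5.05% of all genes did. Without replicate 1, 7 members lay wholly below (8.97%) and 0 wholly above, where 4.9% and 7.53% of all genes did. Without replicate 4, 13 members lay wholly above and 13 wholly below, 16.7% each, where 14.6% and 11.3% of all genes did.

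**Figure D3:**
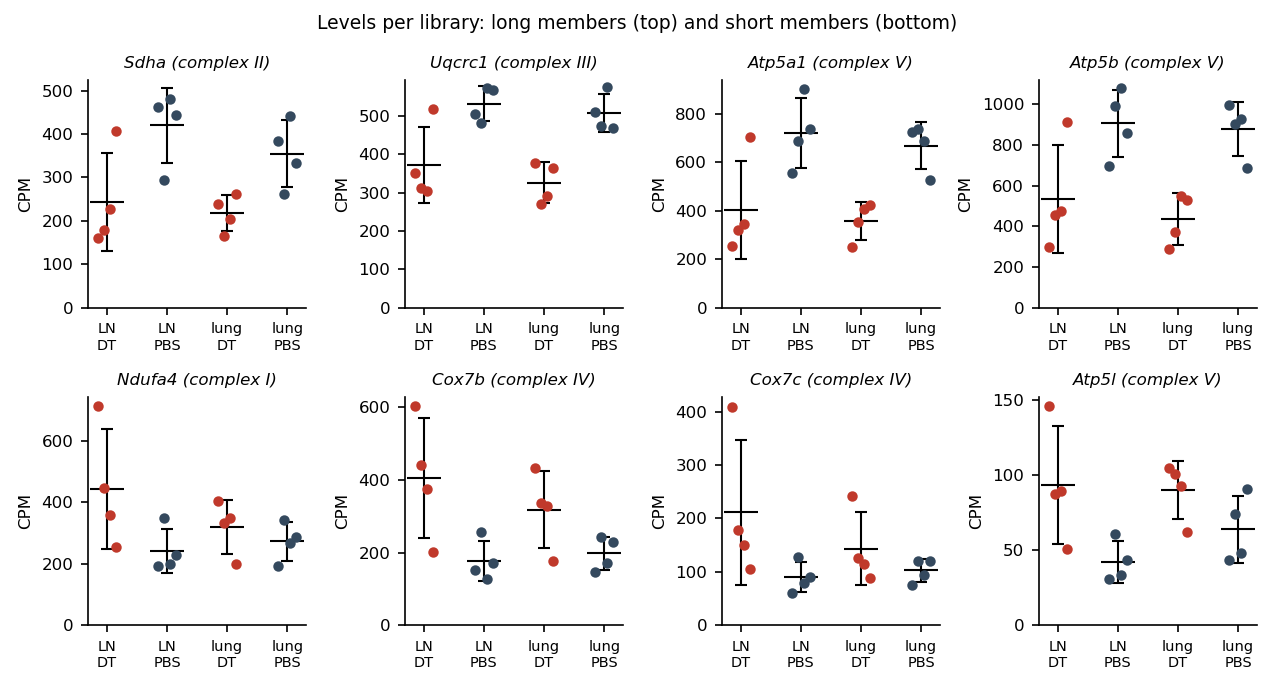
Level in CPM per library (points; DT red, PBS dark) with group mean and SD (n = 4) for 4 long members, Sdha, Uqcrc1, Atp5a1 and Atp5b (top), and 4 short ones, Ndufa4, Cox7b, Cox7c and Atp5l (bottom). In LN, 3 of the 4 DT libraries lie below the PBS libraries for the genes on top and above them for those at the bottom, and none of the 8 passed the edgeR test.

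By role, all 4 members of complex II had log2 fold changes at or below -0.01 in LN (median -0.56), Sdhb, the iron-sulphur subunit, being the one at -0.01. In complex III, the core proteins Uqcrc1 (-0.52 ± 0.22) and Uqcrc2 (-0.52 ± 0.25) and the Rieske iron-sulphur protein Uqcrfs1 (-0.22 ± 0.22) were below 0, and all 5 small subunits were above 0, with a median of 0.71. Uqcrc1 had 352, 313, 304 and 519 CPM in LN DT, against 505, 481, 574 and 568 CPM in LN PBS, and Uqcr10, a small subunit beside the Rieske protein, had 464, 168, 171 and 145 CPM in LN DT, against 88.3, 152, 110 and 129 CPM in LN PBS. In Uqcrc1 replicates 1 to 3 of DT were below every PBS library, and in Uqcr10 they were above every one. In the F1 head of the ATP synthase 4 of 5 subunits were below 0 (median -0.73), the exception being the short epsilon subunit Atp5e at 0.72 ± 0.33, while the 12 other complex V members had a median of 0.19. The delta subunit of the head, Atp5d, had 32.0, 152, 125 and 219 CPM in LN DT, against 165, 278, 212 and 220 CPM in LN PBS, with replicate 1 far the lowest and replicate 4 inside the PBS range. The 7 core subunits of complex I had a median of -0.18 and its 29 tested accessory subunits one of 0.32. Role goes with coding length here. In complex III the core and Rieske proteins have 822 to 1440 coding bases and the small subunits 168 to 333. The complex I core subunits have 636 to 2181. The contrasts by role and the trend with coding length given below are thus not separate results. The part of each was not tested. In complex IV, whose catalytic subunits are mitochondrially encoded, Cox4i1 stood at -0.08 ± 0.22 and Cox5a at -0.11 ± 0.28. In LN the medians of complex II, of both groups of complex III and of F1 kept their sign with median-ratio size factors, with total counts as the scale and without both DT libraries numbered 1. The median of complex I, 0.20, was -0.15 without both of those libraries, when all 7 core subunits were below 0.

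In lung, again no member passed the test, where 0.108% of all genes were called (0.0574% higher and 0.0502% lower). At an unadjusted p under 0.05, 1 member was higher and 9 were lower, 1.28% and 11.5% of the 78, against 7.66% and 7.06% of all genes. DESeq2 called 1 member, Ndufs7 (1.28%), and limma-voom 2, Atp5b and Ndufa9 (2.56%), where they called 3.13% and 3.16% of all genes. Without both DT libraries numbered 1, edgeR called 5 members, all lower (6.41%), where 3.3% of all genes were called. The median log2 fold change of the members was -0.06 and 30 of 78 were above 0, against 0.09 and 54.5% for all genes; with median-ratio size factors the members' median was 0.01. Without replicate 1 of lung DT it was -0.44, beside 0.03 for all genes, and without that library 26 members lay wholly below the PBS libraries and 1 wholly above, 33.3% and 1.28%, where 9.66% and 9.02% of all genes did. With all libraries, 6 members lay wholly below (7.69%, against 4.53% of all genes) and 1 wholly above (1.28%, against 3.35%). Without replicate 4 of lung DT, 7 lay wholly above and 7 wholly below, 8.97% each, where 6.91% and 8.11% of all genes did.

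Among the members wholly below with all libraries were Ndufs7, Uqcrc1, Cox6a1, Atp5a1 and Atp5b. Ndufs7 had the smallest p, with 109, 102, 128 and 112 CPM in lung DT, against 171, 208, 180 and 167 CPM in lung PBS. All 4 DT libraries were close together and below all PBS libraries, replicate 1 included (log2 fold change -0.69 ± 0.20, adjusted p = 0.157; 0.0186 to 0.972 over 26 alternatives, in each of which it was below 0). Atp5b had 288, 375, 550 and 532 CPM in lung DT, against 997, 904, 927 and 687 CPM in lung PBS (log2 fold change -1.01 ± 0.31, adjusted p = 0.179). Atp5a1 had 249, 354, 407 and 423 CPM in lung DT, against 726, 736, 688 and 527 CPM in lung PBS (log2 fold change -0.90 ± 0.30, adjusted p = 0.201). In both F1 genes replicate 1 was the lowest library, although it was the highest of the DT group in the summed level of all members. Uqcrc1 had 377, 270, 290 and 365 CPM in lung DT, against 511, 473, 576 and 468 CPM in lung PBS (log2 fold change -0.64 ± 0.22, adjusted p = 0.214). Cox6a1, a subunit of cytochrome c oxidase, stood at -0.79 ± 0.28 (adjusted p = 0.221). Sdha had 240, 166, 204 and 263 CPM in lung DT, against 385, 261, 441 and 333 CPM in lung PBS, so that only the highest DT library reached above the lowest PBS library (log2 fold change -0.70 ± 0.29, adjusted p = 0.286). The only member higher at an unadjusted p under 0.05 was Ndufs4, an accessory subunit whose loss causes Leigh syndrome in humans, with 191, 144, 131 and 100 CPM in lung DT, against 74.5, 116, 81.0 and 105 CPM in lung PBS (log2 fold change 0.59 ± 0.27, adjusted p = 0.318). Replicates 1 to 3 of DT were above all PBS libraries and replicate 4 was among them.

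In lung the short membrane subunits did not pass the test either. Cox7b had 434, 337, 327 and 176 CPM in lung DT, against 145, 243, 171 and 230 CPM in lung PBS, with replicate 4 within the PBS range (log2 fold change 0.69 ± 0.34, adjusted p = 0.352; -0.19 to 0.83 over 26 alternatives). Cox7c stood at 0.48 ± 0.39 and Atp5l at 0.50 ± 0.34. The difference between the tissues is tested below and did not pass. By role, complex II had a median of -0.53, the 3 core and iron-sulphur proteins of complex III one of -0.54, and F1 one of -0.67 with 4 of 5 below 0, and these medians kept their sign with both other scalings and without both DT libraries numbered 1. Sdhb, at -0.01 ± 0.29, was above 0 with both other scalings. The small subunits of complex III had a median of 0.22, which was -0.17 without both of those libraries.

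**Figure D4:**
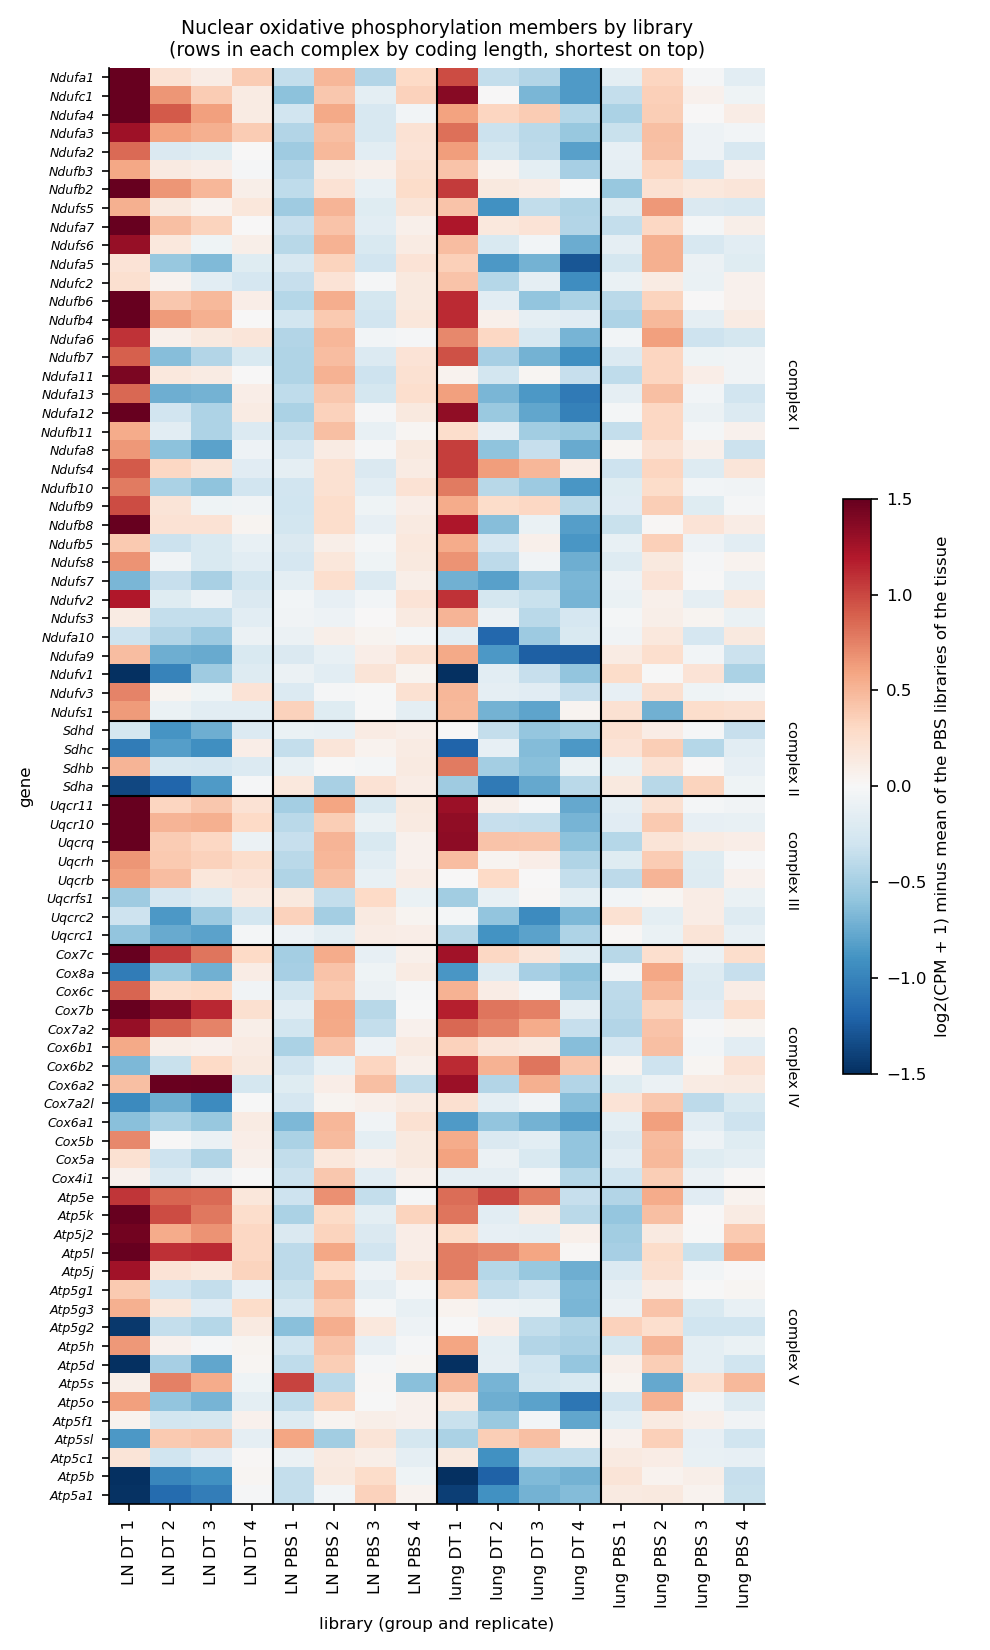
Level of 77 of the 78 tested members (rows, by complex and within it by coding length, shortest on top) in each library (columns), as log2(CPM + 1) minus the mean of the PBS libraries of the same tissue; red is higher and blue lower, with colours ending at 1.5 and -1.5. Replicate 1 of each DT group is red over most rows and blue for Sdha, Atp5a1 and Atp5b, and LN DT replicate 4 is close to the LN PBS libraries.

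Across the members, shorter coding sequences had higher log2 fold changes. The rank correlation (Spearman) over the 78 tested members was -0.64 in LN and -0.58 in lung. Over the 11421 other tested protein-coding genes it was 0.04 and 0.10. Coding sequences of the members ran from 156 to 2181 bases. Of the other genes, 10289 had 528 bases or more, up to 100401, so the 2 sets cover unlike ranges of length. Genes are not independent and share libraries, so no p is given. Classes of about equal size were formed after this was seen. In LN the 27 members with coding sequences of up to 333 bases had a median log2 fold change of 0.71 and 24 of them were above 0. The 25 members of 336 to 525 bases had a median of -0.01, and the 26 of 528 bases or more had one of -0.12, with 19 below 0. In lung the medians were 0.12, -0.15 and -0.26 in the same order, with 22 of the 26 longest below 0. Other protein-coding genes in the shortest class had a median of 0.29 in LN and 0.15 in lung. Those in the middle class had 0.10 and 0.01, and those in the longest class -0.04 and -0.01, the same order as in the members. The short-over-long order held in 26 of 26 alternatives in LN, with correlations between -0.71 and -0.51. In lung it held in 25 alternatives, with correlations between -0.66 and -0.46, and did not in the fit with the mitochondrial share of counts as a covariate, where the correlation was 0.12 and the medians of short and long members were -0.45 and -0.40. In both tissues the alternatives include fits that left out only a library of the other tissue. Its values are not in these fold changes, so such fits are no independent check of the order. Without both DT libraries numbered 1 the medians of short and long members were 0.29 and -0.27 in LN and -0.22 and -0.57 in lung.

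**Figure D5:**
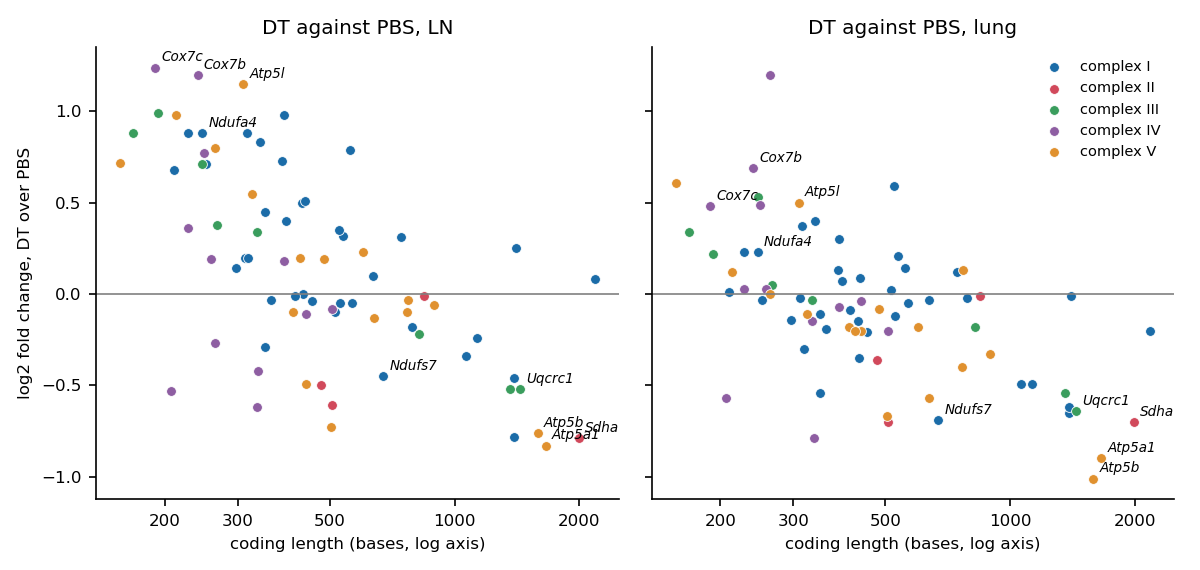
Log2 fold change of DT over PBS for 77 tested members (Cox6a2, of very few counts, is left out) against coding length in bases (log axis), in LN (left) and lung (right), coloured by complex. Short members lie mostly above 0 in LN and long members mostly below 0 in both tissues, with rank correlations of -0.64 and -0.58 over the 78 tested members.

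The same contrast can be read in single libraries. The median level of short members minus that of long members, on the log2 scale and relative to the mean of the PBS libraries of the tissue, was 1.16, 0.76, 0.63 and 0.26 in LN DT, against -0.32, 0.45, -0.22 and 0.01 in LN PBS. In lung it was 0.62, 0.66, 0.45 and 0.14 with DT, against -0.32, 0.22, -0.12 and 0.12 with PBS. In both tissues the lowest DT library, replicate 4, lay inside the PBS range. For the other protein-coding genes the values were 0.76, 0.29, 0.19 and 0.02 in LN DT, against -0.22, 0.25, -0.11 and 0.04 in LN PBS, and 0.72, 0.13, 0.07 and -0.26 in lung DT, against -0.20, 0.18, -0.12 and 0.11 in lung PBS. The share of counts from mitochondrial DNA was 4.93%, 4.18%, 4.01% and 1.24% in LN DT, against 1.61%, 1.68%, 1.28% and 1.05% in LN PBS, with replicate 4 of DT again inside the PBS range. It was 4.26%, 3.22%, 4.40% and 3.11% in lung DT, against 0.951%, 1.36%, 1.71% and 2.57% in lung PBS, without overlap (exact permutation p = 0.0286, adjusted 0.114). In lung, replicate 4 of DT was thus outside the PBS range for this share and inside it for the short-minus-long value. No association of the share with that value over libraries was computed. The part that RNA quality or library preparation has in these values was not tested.

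Beside these values, all 7 B cell markers had log2 fold changes above 0 in LN, none called, with summed levels of 144 to 901 CPM in LN DT, against 63.0 to 116 CPM in LN PBS (exact permutation p = 0.0286, adjusted 0.0858). Jchain, a plasma cell gene, was called higher in LN DT (edgeR adjusted p = 0.0244), with 229, 275, 258 and 39.7 CPM in LN DT, against 0.0, 0.121, 0.124 and 0.0 CPM in LN PBS. The 7 NK cell genes summed to 25900 to 54300 CPM in LN DT, against 15900 to 21100 CPM in LN PBS. Singly, 5 of them were above 0 and 2 below in LN, with a median log2 fold change of 0.1, none called. In lung they summed to 51900, 21000, 19800 and 27300 CPM with DT, against 28800 to 32200 CPM with PBS. There 2 of the NK cell genes were above 0 and 5 below, with a median of -0.5, none called. The plasma cell markers, Jchain included, summed to 409 to 672 CPM in LN DT, against 245 to 321 CPM in LN PBS, without overlap (exact permutation p = 0.0286, adjusted 0.0858). Of the 3 tested of 6 plasma cell markers, Jchain alone lay wholly above LN PBS. The sum was not taken without Jchain, so it is no separate result. In lung the dendritic cell markers summed to 74.4 to 85.4 CPM with DT, against 40.4 to 69.8 CPM with PBS, also without overlap (exact permutation p = 0.0286, adjusted 0.114), and 4 of the 5 tested were above 0, none called. T cell markers summed to 430 CPM in lung DT replicate 1 and to 61.2 to 91.9 CPM in the other lung DT libraries, against 39.4 to 79.9 CPM in lung PBS. The proliferation genes were above 0 in 9 of 10 in each tissue, with sums of 398 to 707 CPM in LN DT, against 249 to 367 CPM in LN PBS, and of 1810 CPM in lung DT replicate 1 and 646 to 711 CPM in the other lung DT libraries, against 420 to 501 CPM in lung PBS. Mki67, a marker of dividing cells, was called higher in lung DT (log2 fold change 2.90 ± 0.42, adjusted p = 0.0129), as was Top2a (2.48 ± 0.47, adjusted p = 0.0491). The part of these cells in the members' values was not tested.

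The DT effect in LN minus that in lung was not called for any member, where 0.00717% of all genes were called (1 gene). DESeq2 and limma-voom called no member either, where they called 0.137% and 0.0% of all genes, and 0 members had an unadjusted p under 0.05, where 2.88% of all genes did with a higher and 1.33% with a lower value in LN. The members' differences leaned to one side, with 64 of 78 above 0 (82.1%) and a median of 0.25, against 51.8% and 0.03 for all genes. The median lay between 0.07 and 0.48 when single libraries were left out, the lowest without LN DT replicate 1 and the highest without lung DT replicate 1, and was 0.34 without both. The smallest p was that of Atp5j2, with a difference of 0.80 ± 0.38 (edgeR adjusted p = 1.0). It had 293, 157, 170 and 132 CPM in LN DT, against 91.9, 134, 91.7 and 114 CPM in LN PBS, and 164, 124, 123 and 143 CPM in lung DT, against 94.1, 148, 135 and 177 CPM in lung PBS. In LN replicates 1 to 3 of DT were above all PBS libraries, and in lung all 4 DT libraries lay within the PBS range. The log2 fold changes of the members in LN and in lung, which share no control libraries (whether they share mice is not stated), had a rank correlation of 0.83 over 78 members and 0.70 without both DT libraries numbered 1.

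Between the tissues in mice given PBS, 0 of 78 members were called for lung against LN, where 3.61% of all genes were called (2.7% higher and 0.904% lower). DESeq2 called 0 and limma-voom 3, Atp5g2, Ndufb9 and Ndufb3, all lower in lung (3.85%), where they called 8.49% and 16.3% of all genes. At an unadjusted p under 0.05, 0 members were higher and 1 was lower, against 10.3% and 6.54% of all genes. The median log2 fold change was -0.07 for the members and -0.01 for all genes; with total counts as the scale these were -0.24 and -0.18, a shift shared with all genes. Atp5g2, the least expressed of the c subunit genes, had 32.0, 30.0, 20.1 and 20.2 CPM in lung PBS, against 29.8, 68.5, 52.3 and 44.0 CPM in LN PBS. The lowest LN library, replicate 1, reached into the lung range (log2 fold change -0.93 ± 0.36, edgeR adjusted p = 0.172; 0.0196 to 0.412 over 26 alternatives, below 0 in each). Atp5g1 stood at 0.05 ± 0.27 and Atp5g3 at -0.01 ± 0.24. Uqcrc2, at -0.51 ± 0.25 (adjusted p = 0.324), was the next in order of p. Ndufa9, Ndufs3 and Ndufv1, all of complex I, lay wholly below LN in the lung libraries, 3.85% of the members where 9.91% of all genes did, and none lay wholly above, where 9.25% of all genes did. All 7 core subunits of complex I had values below 0, with a median of -0.19.

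Other genes of the pathway were read from lists. All 10 tested of the 13 mitochondrially encoded subunits were above 0 with DT in both tissues, none called, with medians of 1.30 in LN and 1.01 in lung, and 0.99 and 0.78 without both DT libraries numbered 1. In complex I, mt-Nd4 had 2380, 1970, 1650 and 674 CPM in LN DT, against 675, 809, 557 and 539 CPM in LN PBS (log2 fold change 1.37 ± 0.36, adjusted p = 0.172). Its replicate 4 was the only LN DT library inside the PBS range. In lung mt-Nd5 had the smallest p of these genes, at 1.34 ± 0.37 (adjusted p = 0.139). The nuclear members' sum divided by the mitochondrial sum was 0.388, 0.533, 0.482 and 1.67 in LN DT, against 1.03, 1.88, 1.42 and 2.17 in LN PBS. In lung the ratio was 0.437, 0.749, 0.503 and 0.422 with DT, against 2.26, 2.56, 0.955 and 0.689 with PBS. Replicate 4 in LN and replicate 2 in lung were inside the PBS values of their tissue, and the other 6 DT libraries were below them. With mt-Cytb left out of the mitochondrial sum, the ratio was 1.06, 0.786, 0.736 and 2.55 in LN DT, against 1.65, 2.55, 2.49 and 3.16 in LN PBS. In lung it was then 1.06, 0.981, 0.689 and 0.671 with DT, against 3.3, 3.33, 1.58 and 1.11 with PBS, so that replicate 2 no longer overlapped.

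The 17 genes of the tricarboxylic acid cycle and pyruvate dehydrogenase, which supply NADH and succinate, had medians of -0.46 in LN with 15 below 0 and of -0.41 in lung with 14 below 0, none called. Mdh2, malate dehydrogenase, had 317, 189, 189 and 394 CPM in LN DT, against 376, 394, 523 and 477 CPM in LN PBS, and overlapped in replicate 4 (log2 fold change -0.70 ± 0.32, adjusted p = 0.397). Dld, the dehydrogenase subunit shared by the keto-acid complexes, had 87.2, 82.2, 59.0 and 75.1 CPM in lung DT, against 141, 110, 138 and 132 CPM in lung PBS. There the groups did not overlap (log2 fold change -0.78 ± 0.25, adjusted p = 0.181). Of 42 tested assembly factors, 27 were above 0 in LN (median 0.21) and 26 in lung (median 0.25), none called, and without both DT libraries numbered 1 the medians were -0.03 and -0.11. Cox17, the copper chaperone of complex IV, had 208, 120, 132 and 70.3 CPM in LN DT, against 53.7, 44.0, 52.5 and 39.9 CPM in LN PBS, without overlap (log2 fold change 1.48 ± 0.36, adjusted p = 0.139). Among mobile carriers and subunits outside the symbol rule, Usmg5, a small ATP synthase subunit, stood at 1.33 ± 0.37 in LN (adjusted p = 0.189), and Cyc1, the cytochrome c1 of complex III, at -0.66 ± 0.27 in LN and -0.47 ± 0.27 in lung. Of 17 regulators 12 were below 0 in LN (median -0.24) and 8 in lung (median 0.07), none called.

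Between the tissues 4 of the 96 tested genes of these 5 lists were called, 4.17%, near the 3.61% of all genes. Slc25a4, which exchanges ADP and ATP across the inner membrane, fell to 85.3, 76.6, 92.0 and 61.6 CPM in lung PBS, against 179, 152, 214 and 183 CPM in LN PBS, without overlap (log2 fold change -1.21 ± 0.24, adjusted p = 0.00826). Uqcc3, an assembly factor of complex III, fell to 25.7, 24.7, 20.8 and 14.9 CPM in lung PBS, against 45.3, 64.0, 52.2 and 58.7 CPM in LN PBS (log2 fold change -1.36 ± 0.29, adjusted p = 0.0117). Myc, a transcription factor that drives growth and mitochondrial biogenesis, was also lower in lung (log2 fold change -2.05 ± 0.47, adjusted p = 0.0181). Polg2, the accessory subunit of the mitochondrial DNA polymerase, was higher, with 25.2, 38.6, 67.8 and 153 CPM in lung PBS, against 16.4, 20.1, 20.0 and 22.7 CPM in LN PBS (log2 fold change 1.85 ± 0.44, adjusted p = 0.0235). The groups did not overlap for any of the 4. Beside this, erythroid markers summed to 272 to 1000 CPM in lung PBS, against 1.21 to 28.1 CPM in LN PBS, and myeloid markers to 358 to 3590 CPM in lung PBS, against 37.6 to 364 CPM in LN PBS. T cell markers summed to 39.4 to 79.9 CPM in lung PBS, against 356 to 440 CPM in LN PBS, and Cd3d and Cd3g were called lower in lung (adjusted p = 0.00436 and 0.00437). Of the 7 tested of 9 T cell markers, 5 were below 0 and 2 above, with a median log2 fold change of -1.38. The NK cell genes summed to 28800 to 32200 CPM in lung PBS, against 15900 to 21100 CPM in LN PBS, and the proliferation genes to 420 to 501 CPM in lung PBS, against 249 to 367 CPM in LN PBS. Singly, 5 of the 7 NK cell genes were above 0 and 2 below, with a median log2 fold change of 0.22, none called. Of the 10 proliferation genes 8 were above 0 and 2 below, with 1 called higher in lung. The sums of erythroid, T cell, NK cell and proliferation genes did not overlap between the tissues (exact permutation p = 0.0286 each, adjusted 0.0858), and the part of those cells was not tested.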

How the data were processed

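The submitters' processing notes name HISAT2, HTSeq and GRCm38; versions and the strand setting were not stated there. The authors deposited 1 table of unnormalized read counts by Ensembl gene, with symbols and coordinates, for 16 libraries, and all sample columns were used. The highest correlation between libraries (log2 CPM) was 0.969, so none was taken as a duplicate.

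Genes kept by filterByExpr (minimum count 10, minimum total 15) were scaled by TMM. The model in edgeR 4.0.16 under R 4.3.3 had 4 group means, 12 residual degrees of freedom and a robust quasi-likelihood dispersion. Two-sided F tests were adjusted by Benjamini-Hochberg over all 13940 genes and called at 0.05. Levels are CPM on TMM-scaled sizes, and errors of log2 fold changes are standard errors (SE). For library measures, exact permutation tests (two-sided) were used. Lengths come from principal transcripts in GENCODE M21, the shortest where several had the same rank. In this annotation 29 members share exonic bases with another gene, 26 of them on the opposite strand, so those values are uncertain. Atp5l, Atp5k, Atp5c1 and Uqcrh have pseudogenes of their name. Floors cover counting error only.

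The test was checked first on simulated data for DT against PBS in LN, with spreads taken from these data and changed genes drawn from all tested genes. It called 6.17% of the genes changed 2-fold, 42.1% of those changed 4-fold and 41.9% of those changed 8-fold, with 3 false calls. A 2-fold change was thus rarely called. The 26 alternatives covered scaling, filters, DESeq2 1.42.0, limma-voom (limma 3.58.1), a replicate block, the mitochondrial share as a covariate and left-out libraries. Non-overlap counts without single libraries, the alternatives by coding length and by complex, and the mitochondrial sum without mt-Cytb were added after seeing the data.

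Members and lists were chosen with earlier results of these data known. Named members are called ones, the smallest p per complex and comparison, core subunits, tissue-restricted isoforms with their counterparts, the c subunit genes, and the highest and lowest level per complex. Of the other lists they are called genes and those of smallest p. Ndufs3, Ndufs4, Ndufa9, Atp5d, Atp5e and Atp5k were named after their values were seen. The values of 1 member are not reported here.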

Additional observations from a re-analysis of the deposited data

Results flagged for a closer look

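Within groups of 4 libraries, 20 of the 176 groups tested (members named by rule and summed levels) had a library farther from the others than Dixon's 95% critical value; chance gives about 1 in 20 such groups. In LN DT, replicate 1 was far above the others for complex I as a sum (8640 CPM, others 4110 to 4390), complex IV as a sum (3480 CPM, others 2450 to 2590), Atp5h (396 CPM), Cox6b1 (478 CPM), Ndufs1 (205 CPM), Sdhb (568 CPM), Uqcr10 (464 CPM) and Uqcrq (413 CPM). Replicate 4 of LN DT was far above the others for Cox6a1 (314 CPM, others 186 to 207) and Sdhc (117 CPM, others 52.4 to 61.0).

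In lung DT, replicate 1 was far above the others for Ndufa3 (171 CPM, others 64.7 to 77.0) and Uqcr10 (325 CPM, others 78.9 to 101). In lung PBS, replicate 2, the library of fewest counts, was far above the others for Atp5g3 (197 CPM), Atp5h (329 CPM), Cox5a (129 CPM), Cox6a1 (514 CPM), Ndufs5 (33.0 CPM) and Uqcr10 (169 CPM), and far below them for Ndufs1 (71.3 CPM, others 139 to 142). Replicate 4 of lung PBS was lowest for complex II as a sum (1010 CPM, others 1160 to 1190).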

How the results depend on the processing

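Among 26 alternatives, no member was called in 23 for LN, 23 for lung, 26 for the difference between tissues and 25 for lung against LN. Except for the difference, these counts include fits that left out only a library of neither group compared. Such a library enters the comparison only through scaling, filtering and the shared estimate of the spread. For LN, DESeq2 called 1 member, limma-voom 35 (12 higher, 23 lower), and leaving out single libraries gave 0 to 2. For lung, DESeq2 called 1, limma-voom 2, leaving out both DT libraries numbered 1 gave 5, all lower, and leaving out single libraries gave 0. For lung against LN, limma-voom called 3. Median log2 fold changes of the members ran between -0.12 and 0.23 in LN, -0.44 and 0.01 in lung, 0.07 and 0.48 for the difference and -0.15 and 0.04 for lung against LN when single libraries were left out. In LN the median was -0.13 with the mitochondrial share as a covariate and -0.10 with limma-voom. In lung it was -0.41 with that covariate and -0.45 without both DT libraries numbered 1. Of all genes, 9 in LN became 298 with DESeq2 (2.15%, members 1.28%), 3722 with limma-voom (26.7%, members 44.9%) and 122 without LN DT replicate 4 (0.837%, members 2.53%). In lung 15 became 434 (3.13%, members 1.28%), 440 (3.16%, members 2.56%) and, without both DT libraries numbered 1, 474 (3.3%, members 6.41%). With edgeR and all libraries no member was called, so no such call could reverse. Of the 35 members called in LN by some alternative, 10 had the other sign in another, among them Ndufb7 (called at -0.53; up to 0.16) and Cox6a2 (called at 3.22; down to -0.65), and 0 of 6 in lung did. With 4 libraries a group and a common biological variation (coefficient) of 0.621, a member without a call is not shown to be equal between groups.

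With a replicate block 0 members were called in each comparison, the medians were 0.12, -0.13, 0.27 and -0.07, and 7, 13, 0 and 538 genes were called in all. The replicate numbers do not pair DT with PBS: correlations of same-numbered deviations were 0.03 to 0.15 in LN and -0.13 to 0.21 in lung. Same-numbered LN and lung DT libraries correlated at 0.18 to 0.41, each best with its own number, a hint from the data and not the design.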
